A study of Homo sapiens with 9 samples.

Results

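The receptor tyrosine phosphatases examined are 10 of the 28395 genes in the count table: *PTPRA*, *PTPRB*, *PTPRE*, *PTPRF*, *PTPRG*, *PTPRJ*, *PTPRK*, *PTPRM*, *PTPRS* and *PTPRU*. They were found by their NCBI gene identifiers, and all 10 were matched. *PTPRS* was selected on its measured absence in 786-M1A, so its values are a description and carry no test. The other 9 members were tested in each comparison. Their mRNA was measured by RNA sequencing in 9 libraries, 3 for each of 3 kidney cell lines, all grown stably in Plasmax, a medium modelled on human plasma. HK2 is an immortalized line of normal proximal tubule cells, 786-O comes from a primary clear cell renal cell carcinoma (ccRCC), and 786-M1A is a metastatic derivative of 786-O. The methods describe the replicates as dishes of each line, so the p-values measure only the spread between dishes of these 3 lines. In such bulk libraries, fewer cells with a transcript and less transcript per cell cannot be told apart.

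Receptor tyrosine phosphatases span the plasma membrane once. An extracellular part built of immunoglobulin, fibronectin, MAM or carbonic anhydrase-like domains senses other cells, matrix or secreted ligands, and a cytoplasmic phosphatase domain removes phosphate from tyrosines of kinases, cadherins and catenins. They are grouped by their domains. The R2A (LAR) family, with *PTPRF*, *PTPRS* and *PTPRD*, binds heparan and chondroitin sulfate proteoglycans and synaptic adhesion proteins. Members of the R2B family, *PTPRK*, *PTPRM*, *PTPRU* and *PTPRT*, act at cell contacts, mostly by binding their own kind on the next cell. *PTPRB* and *PTPRJ* of the R3 group oppose growth factor receptors, *PTPRB* mainly in endothelium. *PTPRA* and *PTPRE* (R4) have short extracellular parts and act on Src family kinases, and *PTPRG* (R5) carries a carbonic anhydrase-like domain that binds contactins.

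Promoter sequences are given for 3 members: *PTPRS*, whose mRNA was absent from 786-M1A, *PTPRF*, its family member with the highest level per length in every line, and *PTPRU*, which has a motif in common with *PTPRS*. Each is the first window listed for the gene, from 250 bases before to 50 after a start on GRCh38.p14, written on the gene's strand. For *PTPRF* this start lies inside the longer RefSeq span of the gene, which begins upstream at 43522051. The *PTPRS* window is chr19:5340763-5341062 on the minus strand, that of *PTPRF* is chr1:43530633-43530932 on the plus strand and that of *PTPRU* is chr1:29236272-29236571 on the plus strand. Capitals mark CACGTG, the E-box, and TGACGTCA, the cAMP response element. Both are palindromes, so each match counts for both strands, and no match of one overlaps a match of the other.
PTPRS: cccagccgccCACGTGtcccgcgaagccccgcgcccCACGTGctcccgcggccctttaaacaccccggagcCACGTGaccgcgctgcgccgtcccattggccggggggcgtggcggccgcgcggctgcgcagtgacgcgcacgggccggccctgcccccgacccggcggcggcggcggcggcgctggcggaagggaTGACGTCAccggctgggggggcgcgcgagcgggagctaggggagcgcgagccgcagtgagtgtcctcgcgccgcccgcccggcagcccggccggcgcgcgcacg
PTPRF: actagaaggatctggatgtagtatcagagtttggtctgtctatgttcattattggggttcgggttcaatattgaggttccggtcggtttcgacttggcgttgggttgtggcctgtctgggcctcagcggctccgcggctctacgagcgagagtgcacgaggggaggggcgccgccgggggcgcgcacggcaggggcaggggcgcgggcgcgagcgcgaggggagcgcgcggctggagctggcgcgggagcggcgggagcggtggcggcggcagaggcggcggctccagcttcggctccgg
PTPRU: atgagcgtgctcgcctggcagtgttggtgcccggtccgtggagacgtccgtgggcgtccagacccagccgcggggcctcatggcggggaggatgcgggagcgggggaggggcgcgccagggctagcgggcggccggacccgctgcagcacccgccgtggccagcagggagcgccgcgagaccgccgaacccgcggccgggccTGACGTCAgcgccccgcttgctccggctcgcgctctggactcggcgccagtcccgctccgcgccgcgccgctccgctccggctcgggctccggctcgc

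The *PTPRS* window held 55 CG dinucleotides, a number reached by 0.392% of the 27305 promoter windows of this length, where the median was 14. It held CACGTG 3 times and TGACGTCA once. At least 1 CACGTG was found in 7.44% of all windows, at least 3 in 0.103% (28 windows), TGACGTCA in 1.98% and both motifs in 0.190% (52 windows). Of the 8 members with a window, *PTPRU* also held TGACGTCA, within 47 CG dinucleotides. The windows of *PTPRA*, *PTPRE*, *PTPRF*, *PTPRG*, *PTPRK* and *PTPRM* held between 34 and 50 CG dinucleotides and neither motif. *PTPRB* and *PTPRJ* had no window. Both motifs were chosen after the *PTPRS* window had been read, and a match describes letters, not a bound site.

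Depth allowed low levels to be read. The libraries held between 30212291 and 45362428 counts, and the biological coefficient of variation estimated over all genes was 3.93%. A floor of 3 counts in a library was between 0.0647 and 0.0964 CPM (counts scaled to the TMM-corrected library total, the scale used below), and covers counting error only. The epithelial markers *PAX8*, *PAX2*, *KRT8* and *KRT18* were detected in every line, while *LRP2*, the megalin receptor that defines mature proximal tubule, was at 0 in all 9 libraries, HK2 included. The summed level of the 8 kidney epithelial markers was 1251 to 1273 CPM in HK2, 635 to 686 CPM in 786-O and 732 to 806 CPM in 786-M1A. Of the 6 leukocyte markers, *PTPRC* and *CD3E* were at 0 throughout, while *CD68*, *LAPTM5* and *CD14* had counts in every library. The list summed to 55.6 to 58.8 CPM in HK2, 28.1 to 30.2 CPM in 786-O and 34.9 to 37.9 CPM in 786-M1A, most of it *CD68*, a lysosomal protein gene (51.0, 27.0 and 36.0 CPM on average).

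Most members differed between the cancer lines and HK2, by small amounts except for *PTPRS*, *PTPRB* and *PTPRU*. Between 786-O and HK2, 8 of the 9 tested members passed the threshold of edgeR (adjusted p under 0.05), of which 4 were higher and 4 lower in 786-O. Over all 12695 genes tested, 84.2% passed in this comparison, 41.6% higher and 42.6% lower, so the members' share was near that of the table. Between 786-M1A and HK2 all 9 passed, 5 higher and 4 lower, where 84.9% of all genes passed, 41.6% higher and 43.3% lower. Among those called higher in both comparisons, *PTPRB* and *PTPRU* were tested only through the cancer lines, so the filter on low counts fixed their direction. Between 786-M1A and 786-O, 4 of 9 passed, *PTPRB* and *PTPRF* higher and *PTPRJ* and *PTPRK* lower in 786-M1A. The background there was 56.0%, with 27.9% higher and 28.0% lower.

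Differences of at least 2-fold were found for *PTPRB* and *PTPRU* in both comparisons with HK2, 2 of 9 members in each, against 22.3% of all genes for 786-O and 25.4% for 786-M1A. Both genes had at most 50 counts in every HK2 library and reached the mean of 50 counts needed for testing through the cancer lines. With HK2 that low, only a gene higher in the cancer lines could be tested, so the filter favoured this direction. Between the cancer lines 0 of the 9 members reached 2-fold, against 6.59% of all genes. The median log2 fold change of the 9 members was 0.11, 0.29 and -0.08 for 786-O over HK2, 786-M1A over HK2 and 786-M1A over 786-O, beside -0.01, -0.02 and 0.00 for all genes tested. The comparisons share libraries, so they are not independent of each other.

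**Figure D1:**
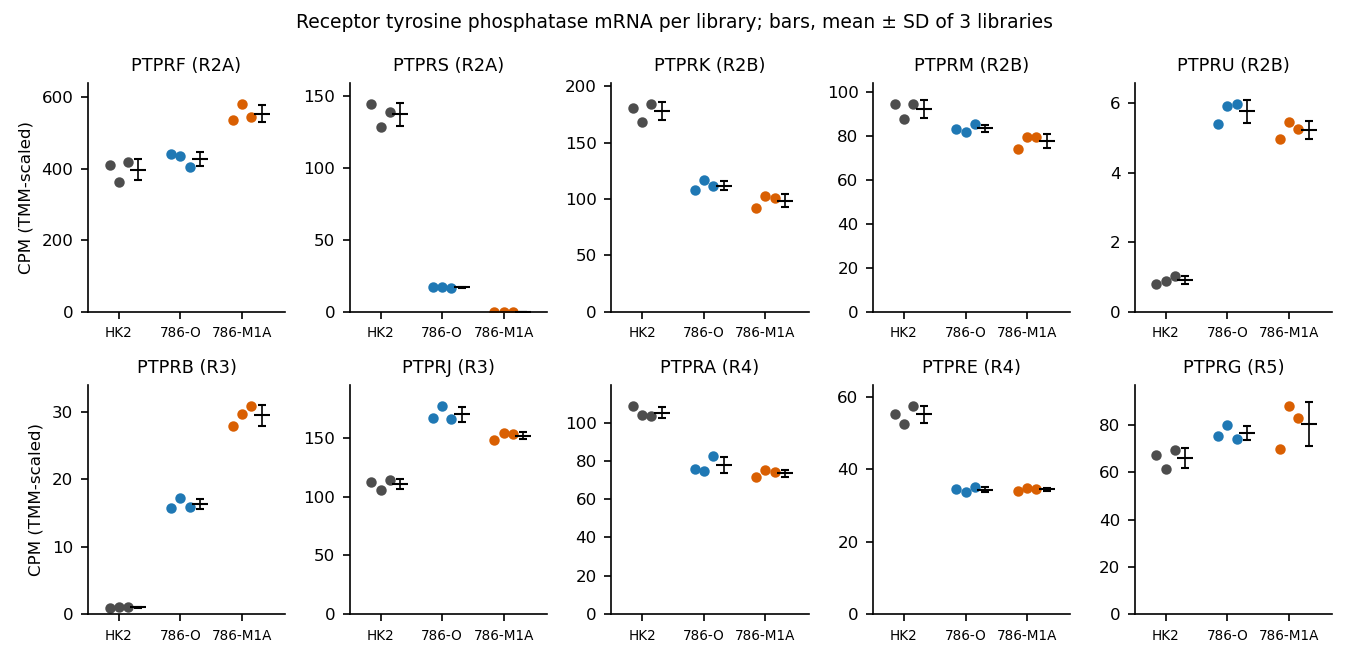
Each panel plots the level of a member in CPM (TMM-scaled, linear axis from 0) in the 3 libraries of HK2, 786-O and 786-M1A as points, with the mean ± SD beside them. *PTPRS* steps from 137 CPM in HK2 to 16.8 CPM in 786-O and 0 in 786-M1A, while *PTPRB* goes from 0.982 to 16.3 and 29.5 CPM.

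*PTPRS*, receptor sigma of the R2A family (chromosome 19, 5205508 to 5340812, minus strand), was abundant in HK2, low in 786-O and had no read in 786-M1A. Its counts were 4481, 5159 and 6410 in the HK2 libraries, 751, 639 and 702 in 786-O, and 0 in each of the 3 libraries of 786-M1A. On the scale of depth these were 144, 128 and 139 CPM in HK2 and 16.9, 17.0 and 16.6 CPM in 786-O. The lines did not overlap, and the 786-O libraries lay close together. The mean was 137 ± 8.19 CPM (SD, n = 3) in HK2 and 16.8 ± 0.214 CPM in 786-O, 8.14-fold lower (log2 fold change -3.02, SE 0.05). With the floor of 3 counts per library, *PTPRS* was at least 203-fold lower in 786-M1A than in 786-O and at least 1653-fold lower than in HK2.

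Complete absence was not unique to *PTPRS*. Of the 12695 genes tested, 139 had 0 counts in all 3 libraries of 786-M1A, 88 in those of 786-O and 22 in those of HK2. Of the 139, 5 had a mean of at least 1 CPM in 786-O, and *PTPRS* ranked 2 among the 139 by its level in 786-O and 4 by its level in HK2.

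The tested genes around *PTPRS* on chromosome 19 did not share its absence from 786-M1A. *KDM4B*, a histone demethylase gene and the nearest tested gene on one side (4969113 to 5153598), had 42.8 ± 1.13 CPM in 786-O, beside 41.9 ± 1.14 CPM in 786-M1A (SD, n = 3), with a log2 difference of -0.03 (SE 0.04, edgeR adjusted p = 0.585). *SAFB2*, a scaffold attachment factor gene and the nearest tested gene on the other side (5586999 to 5622776), had 71.2 ± 1.85 and 71.3 ± 0.292 CPM, with a log2 difference of 0.00 (SE 0.04, edgeR adjusted p = 0.971). *UHRF1* (0.07), *SAFB* (0.01) and *MICOS13* (-0.09) did not pass the threshold either (edgeR adjusted p = 0.166, 0.782 and 0.24), and *PLIN3*, a lipid droplet protein gene, was higher in 786-M1A by a log2 difference of 0.17 (SE 0.04, edgeR adjusted p = 0.0016). The other 4 neighbours, *ARRDC5*, *MIR4747*, *ZNRF4* and *TINCR*, had at most 3 counts in any library. Against HK2, *KDM4B* was higher in 786-O by a log2 difference of 1.05 (edgeR adjusted p = 4.74e-15), where *PTPRS* was lower.

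**Figure D2:**
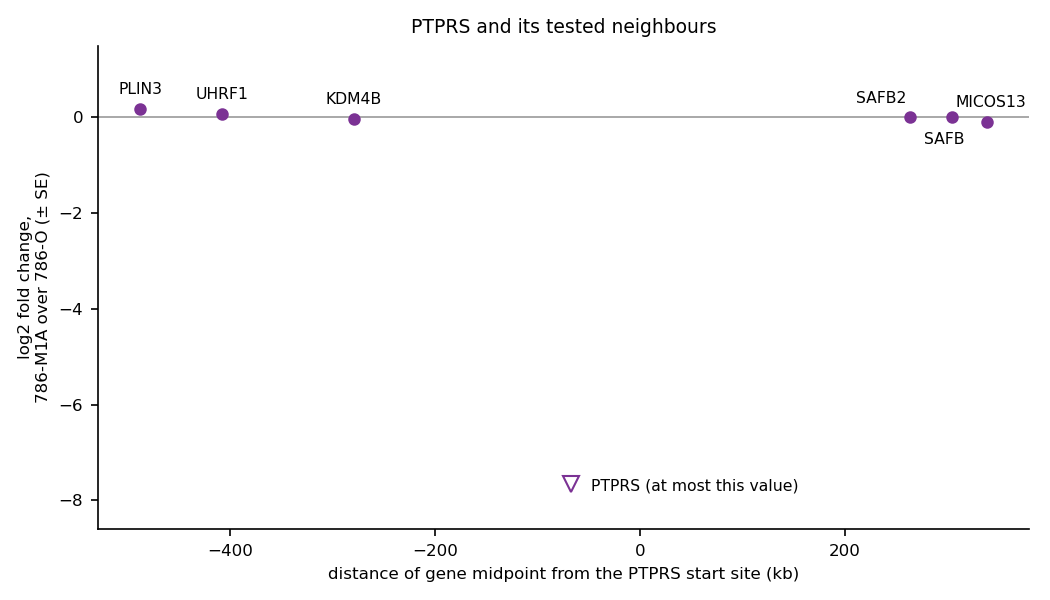
Log2 fold change of 786-M1A over 786-O (± SE) for the 6 tested neighbours of *PTPRS*, by the distance of each gene's midpoint from the *PTPRS* start site in kb. The neighbours lie between -0.09 and 0.17, while *PTPRS*, drawn as an open triangle at its bound of -7.67, lies at or under that value.

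Across the 9 libraries, the genes whose log2 CPM followed *PTPRS* most closely were *ENPP4* (Pearson r = 0.99963), *F2RL2* (0.99956), *WNT3* (0.99917), *EFHB* (0.99909) and *MSI2* (0.99878). The libraries form 3 tight groups, so these values rank genes by the pattern of the line means and are given without a p-value. *ENPP4*, an ectonucleotide pyrophosphatase gene, had 714 to 1147 counts in HK2, 162 to 208 in 786-O and 0 in every 786-M1A library. It was at least 52.8-fold lower in 786-M1A than in 786-O. The others were low but present in 786-M1A: *F2RL2*, a protease-activated receptor gene, had 14 to 16 counts there, *WNT3*, a Wnt ligand gene, had 27 to 32, *EFHB* had 51 or 52 and *MSI2*, an RNA-binding protein gene, had 361 to 414.

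*PTPRF*, the LAR phosphatase itself (chromosome 1, 43522051 to 43623666, plus strand), was highest in 786-M1A, the line in which *PTPRS* of the same family was at 0. Its level was 410, 363 and 419 CPM in the HK2 libraries, 442, 435 and 406 CPM in the 786-O libraries and 537, 581 and 544 CPM in those of 786-M1A. All 786-M1A libraries lay above all others, while 786-O and HK2 overlapped. It was higher in 786-M1A than in HK2 by a log2 difference of 0.48 (SE 0.05, edgeR adjusted p = 9.49e-08) and than in 786-O by 0.37 (SE 0.05, edgeR adjusted p = 6.59e-06). Between 786-O and HK2 the log2 fold change was 0.10 (SE 0.05, 95% interval -0.0016 to 0.21, edgeR adjusted p = 0.0624). Of 18 alternative settings 4 called it, among them the fits without HK2 replicate 3 (0.14, adjusted p = 0.019) and without 786-O replicate 3 (0.14, adjusted p = 0.0218), with adjusted p from 0.00148 to 0.348 over all 18.

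The 3 R2A genes can be compared with each other per length, as RPKM on the union of their exons. Their sum was 58.8 ± 4.13 RPKM in HK2, 49.9 ± 1.96 in 786-O, then 57.0 ± 2.41 in 786-M1A (SD, n = 3). Within it the share of *PTPRS* was 19.8 ± 0.539% in HK2, 2.86 ± 0.0782% in 786-O, then 0 in 786-M1A. *PTPRF* made up 63.1 ± 0.546%, 80.0 ± 0.784% and 90.8 ± 0.358%. *PTPRD*, the remaining R2A gene and no member, held 17.2 ± 0.0137%, 17.2 ± 0.747% and 9.19 ± 0.358%. The summed R2A level thus overlapped between HK2 and 786-M1A (54.1 to 61.4 and 55.0 to 59.7 RPKM). As *PTPRS* was selected on its absence in 786-M1A, its share had to differ there, and the shares of the other genes depend on it. The shares are therefore a description, and a link between the levels of these genes was not tested.

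Among the R2B genes, *PTPRK* and *PTPRM* were lower in the cancer lines and *PTPRU* was higher. *PTPRK*, which is known to dephosphorylate EGFR and catenins, had 181, 169 and 184 CPM in the HK2 libraries, 108, 116 and 112 CPM in the 786-O libraries and 91.5, 103 and 101 CPM in those of 786-M1A. Every HK2 library was above every library of the cancer lines, and each 786-M1A library was below each 786-O library. The log2 fold change was -0.67 for 786-O over HK2 (SE 0.05, edgeR adjusted p = 1.87e-11), -0.85 for 786-M1A over HK2 (SE 0.05, edgeR adjusted p = 2.9e-13) and -0.18 for 786-M1A over 786-O (edgeR adjusted p = 0.00275). The antisense gene *PTPRK-AS1* overlaps it but had at most 2 counts.

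*PTPRM*, a homophilic adhesion receptor that associates with cadherins, followed the same order with smaller steps. It had 94.6, 87.6 and 94.4 CPM in the HK2 libraries, 83.2, 81.8 and 85.3 CPM in the 786-O libraries and 74.0, 79.7 and 79.4 CPM in those of 786-M1A. Its log2 difference from HK2 was -0.14 in 786-O (SE 0.04, edgeR adjusted p = 0.00414) and -0.25 in 786-M1A (SE 0.04, edgeR adjusted p = 2.12e-05). The libraries of the cancer lines did not overlap, but their difference of -0.10 (SE 0.04, 95% interval -0.19 to -0.01) missed the threshold with an edgeR adjusted p = 0.0514. Of the 18 alternatives 6 called it, among them the edgeR fits without HK2 replicate 2 (adjusted p = 0.0353) and without 786-M1A replicate 2 (adjusted p = 0.0493), and the adjusted p over all 18 lay between 0.0347 and 0.196.

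*PTPRU* was close to the limit of the test in HK2, with 25, 35 and 48 counts (0.805, 0.870 and 1.04 CPM). It had 5.39, 5.93 and 5.98 CPM in 786-O and 4.95, 5.45 and 5.26 CPM in 786-M1A. Both cancer lines were thus clear of HK2 and overlapped with each other. As the gene was tested only through its counts in the cancer lines, only a higher level than in HK2 could be found. The log2 fold change over HK2 was 2.65 in 786-O (SE 0.13, edgeR adjusted p = 1.53e-14), a 6.26-fold difference, and 2.51 in 786-M1A (SE 0.13, edgeR adjusted p = 5.95e-14), a 5.68-fold difference. Quantile-normalized log2 counts with limma gave 4.92 and 4.90. Between the cancer lines it was -0.14 (SE 0.09, 95% interval -0.33 to 0.05, edgeR adjusted p = 0.197).

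*PTPRB*, the vascular endothelial phosphatase that acts on TIE2 and VE-cadherin, showed the largest positive differences of the members. Its counts rose from 27, 40 and 50 in HK2 to 698, 645 and 674 in 786-O and to 1007, 1137 and 1167 in 786-M1A. On the scale of depth these were 0.870, 0.994 and 1.08 CPM, then 15.7, 17.1 and 15.9 CPM, then 27.9, 29.7 and 30.9 CPM, with no overlap between any lines. The gene was tested only through its counts in the cancer lines, so against HK2 only a higher level could be found. The log2 fold change over HK2 was 4.03 in 786-O (SE 0.10, edgeR adjusted p = 1.6e-19) and 4.88 in 786-M1A (SE 0.09, edgeR adjusted p = 1.37e-21). Quantile-normalized log2 counts with limma gave 6.09 and 6.92. Between the cancer lines it was 0.86 (SE 0.06, edgeR adjusted p = 5.46e-11), and between 0.82 and 0.90 over the alternatives. The 7 endothelial markers summed to 2.64 to 2.77 CPM in HK2, 0.611 to 0.925 CPM in 786-O and 1.17 to 1.47 CPM in 786-M1A. These sums lay below *PTPRB* alone in both cancer lines, though CPM takes no account of gene length. *PECAM1* was at 0 in both cancer lines and *CDH5* was at 0 in 786-M1A. *KDR*, a VEGF receptor gene of the same list, went in the order of *PTPRB* at low counts, with at most 1 in HK2, 3 to 11 in 786-O and 33 to 40 in 786-M1A, while *TIE1* went the other way, with 76 to 111, 15 to 21 and 5 to 7. The part of these markers in the result for *PTPRB* was not tested, and 0 of the 7 reached the mean of 50 counts needed for testing.

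*PTPRJ*, also known as DEP-1 or CD148 and a phosphatase of PDGF and VEGF receptors, was highest in 786-O. It had 112, 106 and 114 CPM in the HK2 libraries, 167, 177 and 166 CPM in the 786-O libraries and 149, 154 and 153 CPM in those of 786-M1A, so 786-M1A lay between the other lines with no overlap. The log2 fold change over HK2 was 0.62 in 786-O (SE 0.04, edgeR adjusted p = 3.37e-12) and 0.46 in 786-M1A (SE 0.04, edgeR adjusted p = 6.4e-10). Between the cancer lines it was -0.16 (edgeR adjusted p = 0.0014).

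The R4 genes were both lower in the cancer lines than in HK2 and did not differ detectably between 786-O and 786-M1A. *PTPRA*, an activator of Src kinases, had 109, 104 and 103 CPM in the HK2 libraries, 75.8, 74.9 and 82.6 CPM in the 786-O libraries and 71.7, 75.1 and 74.0 CPM in those of 786-M1A. Its log2 fold change over HK2 was -0.44 in 786-O (SE 0.04, edgeR adjusted p = 4.87e-09) and -0.52 in 786-M1A (SE 0.04, edgeR adjusted p = 3.14e-10). Between the cancer lines, whose libraries overlapped, it was -0.08 (95% interval -0.17 to 0.01, edgeR adjusted p = 0.132).

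*PTPRE*, the close relative of *PTPRA* that also occurs as a cytosolic form, had 55.4, 52.6 and 57.5 CPM in the HK2 libraries, 34.5, 33.6 and 35.0 CPM in the 786-O libraries and 33.9, 34.8 and 34.5 CPM in those of 786-M1A. Both cancer lines stood apart from HK2 and overlapped with each other. The log2 fold change over HK2 was -0.68 in 786-O (SE 0.05, edgeR adjusted p = 5.29e-12) and -0.68 in 786-M1A (SE 0.05, edgeR adjusted p = 5.81e-12). The difference between the cancer lines was 0.00, with a 95% interval from -0.09 to 0.10 (edgeR adjusted p = 0.97).

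*PTPRG*, the R5 member, was slightly higher in the cancer lines, with a mean of 80.4 ± 9.30 CPM in 786-M1A (SD, n = 3). It had 67.2, 61.3 and 69.5 CPM in the HK2 libraries, 75.6, 80.2 and 74.3 CPM in the 786-O libraries and 70.1, 88.1 and 83.0 CPM in those of 786-M1A. Replicate 1 of 786-M1A was the lowest library of either cancer line, yet above HK2. The log2 fold change over HK2 was 0.29 in 786-M1A (SE 0.07, edgeR adjusted p = 0.00303) and 0.22 in 786-O (SE 0.07, edgeR adjusted p = 0.0159). The latter call was lost in 3 of the 18 alternatives, namely without HK2 replicate 2 (0.17, edgeR adjusted p = 0.0634), without 786-O replicate 2 (0.18, edgeR adjusted p = 0.0514) and with quantile-normalized log2 counts (0.19, limma adjusted p = 0.0602). Between the cancer lines it was 0.07 (95% interval -0.09 to 0.23, edgeR adjusted p = 0.453), but 0.16 and called without 786-M1A replicate 1 (edgeR adjusted p = 0.0103). The opposite-strand gene *PTPRG-AS1* overlaps it and had 108 to 157 counts in HK2, 50 to 71 in 786-O and 65 to 84 in 786-M1A, beside 2085 to 3379 for *PTPRG*. Whether counting used the strand is not given in the sources used here, so reads of this pair may be mixed.

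Per length, *PTPRF* ranked 1 among the 20 receptor phosphatase genes in every line, with 37.1 ± 2.80 RPKM in HK2, 39.9 ± 1.79 in 786-O, then 51.7 ± 2.24 in 786-M1A (SD, n = 3). *PTPRA* followed at 26.9, 19.9 and 18.8 RPKM. In HK2 the order went on with *PTPRK* (19.9 RPKM), *PTPRS* (11.6), *PTPRJ* (11.4), the non-member *PTPRD* (10.1), *PTPRM* (9.31), *PTPRE* (4.93) and *PTPRG* (4.51), where *PTPRS* overlapped with *PTPRJ*, *PTPRD* with *PTPRM* and *PTPRE* with *PTPRG*. *PTPRU* (0.135 RPKM) and *PTPRB* (0.0675 RPKM) were far below. In 786-O *PTPRJ* (17.5 RPKM) stood above *PTPRK* (12.5), *PTPRD* (8.55), *PTPRM* (8.43), *PTPRG* (5.24) and *PTPRE* (3.07), where *PTPRD* overlapped with *PTPRM*, and *PTPRS* (1.43) ranked 9, above *PTPRB* (1.12) and *PTPRU* (0.863). In 786-M1A *PTPRB* (2.03 RPKM) ranked 9 and *PTPRU* (0.782) ranked 10, and *PTPRS* was at 0. With the longest transcript as the length, 8 of 30 member ranks changed. *PTPRA* ranked 3 in HK2, where it changed places with *PTPRK*, and 3 in 786-O, where it did so with *PTPRJ*. *PTPRM* rose from rank 7 to 5 in HK2, past *PTPRD* and *PTPRJ*, and from 6 to 5 in 786-O. *PTPRE* rose from rank 8 to 7 in 786-M1A. The 10 members summed to 126 ± 5.95 RPKM in HK2, 110 ± 1.21 in 786-O, then 116 ± 4.50 in 786-M1A.

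**Figure D3:**
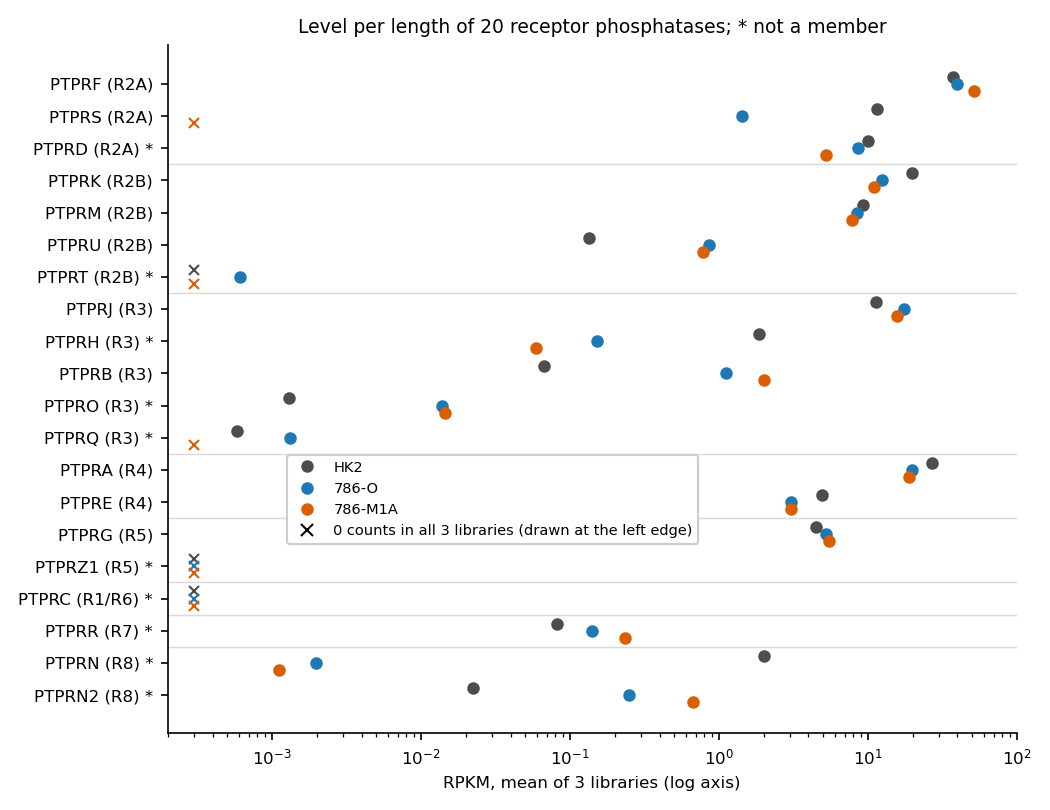
Mean RPKM over 3 libraries (log axis) of the 20 receptor phosphatase genes by subtype, for HK2, 786-O and 786-M1A, with an asterisk at genes that are not members. *PTPRF* is the rightmost point in every line, *PTPRS* runs from 11.6 RPKM in HK2 to a cross at the left edge in 786-M1A, where crosses stand for 0 counts in all 3 libraries.

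Of the 10 receptor phosphatase genes outside the members, 4 had enough counts to be tested. *PTPRD* (R2A) was lower in 786-M1A than in 786-O by a log2 difference of -0.71 (SE 0.05, edgeR adjusted p = 6.26e-10), with 60.0 ± 3.06 against 98.1 ± 4.56 CPM (SD, n = 3), and had 116 ± 8.04 CPM in HK2. *PTPRH* (R3) had 276 to 370 counts in HK2, 21 to 38 in 786-O and 8 to 11 in 786-M1A. The R8 genes *PTPRN* and *PTPRN2*, known from secretory granules of endocrine cells, went opposite ways: *PTPRN* had 503 to 793 counts in HK2 and at most 1 in any cancer library, while *PTPRN2* had 3 to 5 in HK2, 44 to 53 in 786-O and 106 to 133 in 786-M1A. *PTPRH* and *PTPRN* were tested only through their HK2 counts and *PTPRN2* only through its 786-M1A counts. The filter thus favoured these directions. Of the untested genes, *PTPRC* and *PTPRZ1* were at 0 in all 9 libraries, *PTPRT* and *PTPRQ* had at most 1 count in a library, *PTPRO* had 1 to 17 and *PTPRR* had 14 to 47.

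The surface partners of the R2A family moved in both directions between the cancer lines. Of 30 listed proteoglycans and synaptic adhesion genes, 20 were tested, and 7 were higher and 7 lower in 786-M1A than in 786-O, beside 27.9% higher and 28.0% lower of all genes. *SLITRK2*, which encodes a synaptic ligand of the family, had 0 counts in HK2, 85 to 120 in 786-O and 1136 to 1217 in 786-M1A, a log2 difference of 3.60 between the cancer lines (SE 0.08, edgeR adjusted p = 6.14e-18). *LRFN5*, another adhesion ligand of the family, fell by 3.40 on the log2 scale (SE 0.20, edgeR adjusted p = 6.19e-12), from 114 to 134 counts in 786-O to 9 to 11 in 786-M1A. *CSPG5*, a chondroitin sulfate proteoglycan, had 3 to 12 counts in 786-O, 36 to 40 in 786-M1A and 272 to 379 in HK2. Of 7 listed intracellular partners 4 were tested, with *PPFIBP1* (liprin beta 1) higher in 786-M1A by a log2 difference of 0.19 from 786-O (edgeR adjusted p = 0.00358) and *TRIO*, which binds LAR, lower by -0.27 (edgeR adjusted p = 0.024). *PPFIA1* (liprin alpha 1) did not pass (-0.10, edgeR adjusted p = 0.0667).

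Ligands of the other receptor phosphatases were lower in the cancer lines than in HK2 in 4 of the 4 tested genes, of 8 listed. Of all genes, 42.6% (786-O) and 43.3% (786-M1A) were lower, but the filter on low counts fixed this direction for *CNTN4* and *CNTN6*. *MDK*, midkine, had 280 ± 12.8 CPM in HK2, 1.02 ± 0.0762 CPM in 786-O, rising to 4.38 ± 0.385 CPM in 786-M1A (SD, n = 3). Its difference between the cancer lines was 2.09 (log2, SE 0.12, edgeR adjusted p = 3.44e-12). *THBS1*, thrombospondin 1 and a ligand of *PTPRJ*, was lower in 786-M1A than in 786-O by a log2 difference of -1.08 (SE 0.06, edgeR adjusted p = 8.83e-09), with 445 ± 40.2 against 940 ± 40.4 CPM. *CNTN6*, a contactin, had 141 to 231 counts in HK2, 3 to 9 in 786-O and 2 to 7 in 786-M1A. *CNTN4* had 299 to 409 in HK2 and 0 in every library of the cancer lines. Both were tested only through their HK2 counts, so only a lower level in the cancer lines could be found. Of the untested genes, *PTN* went the other way, with 0 counts in HK2, 3 to 11 in 786-O and 6 to 17 in 786-M1A. *CNTN1* had 46 to 68, 48 to 68 and 24 to 31, *CNTN5* had at most 4 and *CNTN3* had 0 throughout. The share of 4 of 4 therefore gives no direction for the list.

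Among the substrates, 5 of 6 cadherin and catenin genes passed between the cancer lines, 2 higher and 3 lower in 786-M1A, where 56.0% of all genes passed. *CDH1*, E-cadherin and among the 3 called lower, had 146 to 212 counts in HK2, 1 to 7 in 786-O and at most 1 in 786-M1A. It was tested only through its HK2 counts. Its call between the cancer lines rests on few reads, and the libraries of these lines overlapped. *JUP*, plakoglobin, fell from 88.6 ± 4.38 CPM in HK2 to 16.1 ± 0.957 CPM in 786-O and further to 3.52 ± 0.349 CPM in 786-M1A (SD, n = 3), with a log2 difference of -2.19 between the cancer lines (SE 0.08, edgeR adjusted p = 2.13e-15). *CTNND1*, p120 catenin, was lower by -0.36 (SE 0.12, edgeR adjusted p = 0.0121) on 107 to 267 counts, though the libraries of the cancer lines overlapped. The 2 called higher had larger counts. *CDH2* had 381 ± 16.3 CPM in 786-M1A against 333 ± 7.21 CPM in 786-O (log2 difference 0.195, edgeR adjusted p = 0.000138). *CTNNA1* had 1024 ± 14.9 against 958 ± 4.36 CPM (0.0956, edgeR adjusted p = 0.011).

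Of 11 listed kinase substrates 9 were tested, and 4 were higher and 2 lower in 786-M1A than in 786-O, where 56.0% of all genes passed, 27.9% higher and 28.0% lower. *PDGFRB*, a receptor that *PTPRJ* dephosphorylates, had 5.00 ± 0.607 CPM in HK2, 2.60 ± 0.366 CPM in 786-O but 282 ± 3.08 CPM in 786-M1A (SD, n = 3), a log2 difference of 6.75 between the cancer lines (SE 0.07, edgeR adjusted p = 1.11e-24). *FYN*, a Src family kinase, was lower by -0.73 (SE 0.09, edgeR adjusted p = 4.84e-07) and *EGFR* by -0.60 (SE 0.11, edgeR adjusted p = 0.00243). The processing proteases were tested in 9 of 9 cases, with 1 higher and 5 lower in 786-M1A against the same background. *ADAM10*, which sheds receptor phosphatases, was lower by -0.53 (SE 0.04, edgeR adjusted p = 3.72e-11), *FURIN*, which cleaves the R2A and R2B precursors, by -0.37 (SE 0.04, edgeR adjusted p = 2.35e-07) and *APH1B*, of the gamma-secretase complex, by -0.53 (SE 0.07, edgeR adjusted p = 6.79e-07). Of 17 listed non-receptor phosphatases 14 were tested, with 7 higher and 6 lower in 786-M1A, also beside 56.0% passing over all genes, among them *PTPN13* at -0.78 (SE 0.04, edgeR adjusted p = 1.56e-12) and *PTPN4* at -0.52 (SE 0.05, edgeR adjusted p = 3.42e-08). *PTPN20*, among the 7 called higher, had 319 to 504 counts in HK2 and at most 4 in any library of the cancer lines. It was tested only through its HK2 counts, and its call between the cancer lines (edgeR adjusted p = 0.0389) rests on few reads. The median log2 fold change of 786-M1A over 786-O was -0.02 for the tested surface partners of the R2A family, -0.21 for the cadherin and catenin genes, -0.11 for the proteases and 0.07 for the non-receptor phosphatases, beside 0.00 for all genes.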

How the data were processed

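The authors prepared TruSeq Stranded mRNA libraries from cells grown in Plasmax, sequenced them on a NextSeq and counted reads on genes with featureCounts on GRCh38. They deposited raw counts, with no normalization and no filter on low counts. The annotation version and strand setting are not given in the sources used here. Of 28395 NCBI gene identifiers, 27745 matched a RefSeq symbol; 7154 genes had 0 counts throughout.

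From the deposited counts, CPM were computed with the TMM factors (0.967 to 1.03) of edgeR 4.0.16 in R 4.3.3. RPKM used exon union lengths from the GENCODE annotation of GRCh38. The counts are on NCBI gene identifiers, so these lengths may include exons that were not counted. Genes averaging 50 counts or more were tested with edgeR's robust quasi-likelihood model, all 9 libraries in a single fit, with Benjamini-Hochberg adjustment over 12695 genes and a threshold of 0.05. Standard errors came from the F statistic, and 95% intervals use the t quantile at the degrees of freedom of the fit. An exact two-sided permutation test of 3 libraries against 3 cannot go below p = 0.1. The model was tested on simulated data. No library pair was a duplicate, with a chi-square per degree of freedom between 3.10 and 8.62.

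The members and the gene lists were chosen with earlier results of these data known. Named were the 10 members, the 10 other receptor phosphatase genes, up to 3 tested genes per list with the largest difference between the cancer lines, 5 neighbours on each side of *PTPRS*, the 5 genes most like it, and count-table genes overlapping a member. *CNTN4* and the untested ligands of its list were named as well, to show what the filter on low counts did there. *CDH2* and *CTNNA1* were added to give the called genes of their list in both directions. Alternatives were RLE and upper-quartile scaling, DESeq2 1.42.0, voom and quantile-normalized log2 counts with limma 3.58.1 (0 set to 0.5), no filter, at least 10 counts in every library, the 2 compared lines only, a replicate block, and each library left out in turn. VSN, which the study's methods name, was not used here. No protein sequences were used here.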

Additional observations from a re-analysis of the deposited data

Results flagged for a closer look

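The difference from HK2 was not the same size in 786-O and 786-M1A for 4 members, as tested by the contrast of 786-M1A with 786-O itself. For *PTPRB* the log2 fold change over HK2 was 0.858 larger in 786-M1A than in 786-O (edgeR adjusted p = 5.46e-11, higher in 3 of 3 libraries). For *PTPRF* it was larger by 0.374 (edgeR adjusted p = 6.59e-06, higher in 3 of 3 libraries). For *PTPRJ*, higher than HK2 in both cancer lines, the change was -0.163 (edgeR adjusted p = 0.0014, lower in 3 of 3 libraries). For *PTPRK*, lower than HK2 in both, it was -0.183 (edgeR adjusted p = 0.00275, lower in 3 of 3 libraries). No sample was tested as an outlier, since each line has 3 libraries.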

How the results depend on the processing

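Over the 18 alternatives, the number of members called was between 7 and 9 of 9 for 786-O against HK2, 9 throughout for 786-M1A against HK2, and 4 or 5 for 786-M1A against 786-O. Of 486 member values, 472 stayed on their side of the threshold, 3 lost the call, 11 gained it and 0 changed sign with a call. The log2 differences of *PTPRE* (from -0.01 to 0.02) and *PTPRG* (from -0.0023 to 0.16) between the cancer lines, neither called as reported, changed sign under some, without a call. The alternatives that leave out a library gave 7 to 9, 9 and 4 to 5 members called in the same order, and 10402 to 10816, 10531 to 10782 and 6342 to 7242 genes over the whole table. The replicate block gave 8, 9 and 5 members, the added one being *PTPRM* between the cancer lines (edgeR adjusted p = 0.0495). Same-numbered libraries deviated with correlations of -0.03, -0.06 and -0.05 between 786-O and HK2, of -0.08, -0.17 and 0.04 between 786-M1A and HK2, and of 0.21, 0.07 and 0.11 between 786-M1A and 786-O, so the numbers were not taken to pair the samples. In these comparisons 0, 1 and 6 of the 6 libraries correlated best with their own number, a hint from the data and not from the design. Quantile-normalized log2 counts with limma turned the sign of *LRFN5* (to 0.016) and *PTPRG-AS1* (to 0.0047) for 786-M1A against HK2 and brought *CTNNA1* to 0.00 for 786-M1A against 786-O; the cause was not tested. The count of all genes with a 2-fold difference rose without a filter on low counts to 5410, 5895 and 1592, from 2829, 3220 and 836, where 21241 genes were tested. Asking every library for 10 counts or more removes *PTPRS*. Library totals without TMM factors moved a member level by at most 3.26%, and the longest transcript changed 8 of 30 ranks per length. No scaling moved the median of all genes by over 0.1 on the log2 scale. Depth limits *PTPRS* in 786-M1A to the bounds given.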
